A study of Mus musculus with 5 samples.

Results

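The mitochondrial ribosomal protein genes are the nuclear genes named Mrpl, for the large subunit of the mitochondrial ribosome, and Mrps, for its small subunit. Members were all named probes whose gene symbol began with either stem followed by a number, with the brightest probe standing for each gene. This gave 69 genes out of 17742 named genes on the array, 45 named for the large and 24 for the small subunit, and all 69 are protein-coding in the RefSeq gene table. Subunits are counted by gene name throughout, also in the figures. Mrps30 and Mrps18a, which sit in the large subunit in solved structures, are therefore counted with the small subunit. The rule used names only and no measured value. Of 78 protein-coding genes in that table with such a name, 9 had no named probe and were not analysed here (Mrpl23, Mrpl30, Mrpl32, Mrpl47, Mrps5, Mrps18c, Mrps21, Mrps26 and Mrps36).

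RNA was measured on 5 single-colour arrays of mouse cells, 1 array for each group, in a study of how Linc1405, a long non-coding RNA, acts with the transcription factor Eomes in the making of heart muscle. Embryonic stem cells (ESCs, genotype control) were taken at day 0. Knockdown and control cells were taken at day 4, when the labels call them mesoderm cells, and again at day 10, when the labels call them cardiomyocytes. The labels name the knockdown samples MES_1405KIpA and CM_1405KIpA and describe them as a knockdown of linc1405, without saying how it was made or whether it was 1 clone. All cells came from the ESC line 46C. ESCs grew on feeder cells, removed at harvest, in 15% serum with leukaemia inhibitory factor at 1000 U/ml. The labels put both lines, up to day 4, in serum-free medium with 5 ng/ml of Activin A, 5 ng/ml of VEGF and 0.2 ng/ml of Bmp4. Up to day 10 both lines had 25 ng/ml of FGF10, 10 ng/ml of bFGF and 5 ng/ml of VEGF.

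With 1 array per group there is no spread between cultures, no test was possible, and every difference below describes 2 arrays. Values are log2 intensities after quantile normalization over the 5 arrays, with a floor of 6.64 (an intensity of 100), and differences are log2 differences, on which 1 unit is 2-fold. A gene was counted as higher or lower where its brighter array reached the 50th percentile of all probes (9.16) and the difference was at least 2-fold. Probe error, which leaves out error between cultures, was estimated as the SD of 1 probe's difference. It came from the gap between the brightest and second probes of genes with several. Any real difference in what such probes detect counts towards this error. It was 0.21 at day 4 and 0.27 at day 10 for knockdown against control, 0.61 for control day 4 against ESCs, and 0.71 and 0.74 for day 10 against day 4 in knockdown and control cells. Of the 69 members, 65 passed the intensity filter in all 6 comparisons made here, Mrpl19 passed in 2, and Mrpl21, Mrpl45 and Mrps25 in 0. The 9 pluripotency markers measured had a median of 15.67 in ESCs and of 10.13 or less on the other arrays. The median of 10 streak and early mesoderm markers was highest at day 4, at 12.51 in knockdown and 12.61 in control cells. Not all of them peaked there. Eomes was level between ESCs (12.15) and day 4 (12.17 in knockdown and 12.01 in control cells). Pdgfra was brightest at day 10 (14.42 in knockdown and 14.56 in control cells). At day 10 the 7 heart muscle markers measured, of 12 listed, had medians of 14.58 in knockdown and 15.56 in control cells. Tnnt2 among them went the other way, at 15.94 in knockdown and 12.89 in control cells. On the same 2 arrays fibroblast and matrix markers had medians of 15.57 and 14.93, liver-type endoderm markers of 11.57 and 14.05 and epicardial markers of 14.29 and 11.68. In such mixed cultures, fewer cells of a type and less RNA per cell cannot be told apart. The fibroblast and matrix markers, which feeder cells share, had a median of 10.09 in ESCs. At day 4 it was 8.14 in knockdown and 8.27 in control cells. Dcn (13.80), Postn (13.77) and Col1a2 (12.39) were bright in ESCs, while Col1a1 and Pdgfrb were dimmer there than at day 4. Whether feeder RNA was left on the ESC array was not tested.

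Mitochondria keep a small genome of their own, and the mitochondrial ribosome translates its few messages, which encode core subunits of the respiratory chain. All of its proteins are encoded in the nucleus, made in the cytosol and imported. Some descend from the ribosome of the bacterial ancestor and others were added later in evolution. Heart muscle depends on respiration, and in humans defects in several of these genes cause loss of mitochondrial translation, often with cardiomyopathy. Genes for mitochondrial proteins commonly share binding sites for the factors NRF1, GABP (of the ETS family) and YY1 near their start sites.

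RefSeq promoter windows of GRCm38.p6, running from 250 bases before to 50 bases after a gene's start, were found for 60 of the 69 members, as 66 windows because Mrpl2, Mrpl48 and Mrps16 had more than 1. Core letters of the 3 factors were searched on both strands: CCGGAAG for ETS factors, GCATGCGC for NRF1 and AAGATGGCG for YY1. The ETS letters stood in 23 of the 66 windows (34.8%), against 8.86% of all 32851 windows and 12.6% of the windows of all genes named on the array. The NRF1 letters stood in 7 (10.6%), against 2.71% of all windows and 3.92% of those of array genes, and the YY1 letters in 8 (12.1%), against 1.40% and 2.06%. Together 32 of the 66 windows held at least 1 of the 3, against 12.1% of all windows. These are matches of letters and not measured binding.

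The following windows are shown for members on which the results below turn, each read 5′ to 3′ on the gene's strand in lower case with matched letters in capitals. Mrpl33 (chr5:31613701-31614000, + strand) and Mrpl9 (chr3:94443086-94443385, + strand) were brighter at day 10 than at day 4 after normalization. The Mrpl33 window holds an NRF1 match just before the start and next to it an ETS match that runs across it, and the Mrpl9 window holds an NRF1 match on each strand in the same overlapping letters. Mrps18b (chr17:35916391-35916690, - strand), dimmer at day 10, holds NRF1 and ETS matches too. The window of Mrps11 (chr7:78782881-78783180, + strand) shares 141 bases with that of Mrpl46, a neighbour that starts in the opposite direction. Mrpl36 (chr13:73330759-73331058, + strand) has the most variable values of all members. Mrpl12 (chr11:120484387-120484686, + strand), among the members with the largest decrease, has none of the 3 motifs in its window.
Mrpl33: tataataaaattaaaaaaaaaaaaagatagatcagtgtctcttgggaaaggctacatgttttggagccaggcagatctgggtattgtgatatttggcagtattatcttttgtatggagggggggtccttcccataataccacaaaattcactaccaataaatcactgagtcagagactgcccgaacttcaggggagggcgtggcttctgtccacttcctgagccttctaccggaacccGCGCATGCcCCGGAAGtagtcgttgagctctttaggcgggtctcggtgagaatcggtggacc
Mrpl9: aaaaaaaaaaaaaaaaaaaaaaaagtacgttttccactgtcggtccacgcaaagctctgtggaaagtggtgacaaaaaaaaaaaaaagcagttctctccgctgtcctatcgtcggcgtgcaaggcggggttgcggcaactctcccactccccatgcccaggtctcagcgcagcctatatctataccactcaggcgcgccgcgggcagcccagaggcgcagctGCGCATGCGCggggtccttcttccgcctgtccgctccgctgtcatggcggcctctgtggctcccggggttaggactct
Mrps18b: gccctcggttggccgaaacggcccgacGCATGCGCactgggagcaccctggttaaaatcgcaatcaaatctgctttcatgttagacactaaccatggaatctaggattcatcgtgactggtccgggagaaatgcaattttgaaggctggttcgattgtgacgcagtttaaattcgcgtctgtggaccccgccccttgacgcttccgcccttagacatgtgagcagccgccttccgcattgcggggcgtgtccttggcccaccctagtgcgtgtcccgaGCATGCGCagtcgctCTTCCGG
Mrps11: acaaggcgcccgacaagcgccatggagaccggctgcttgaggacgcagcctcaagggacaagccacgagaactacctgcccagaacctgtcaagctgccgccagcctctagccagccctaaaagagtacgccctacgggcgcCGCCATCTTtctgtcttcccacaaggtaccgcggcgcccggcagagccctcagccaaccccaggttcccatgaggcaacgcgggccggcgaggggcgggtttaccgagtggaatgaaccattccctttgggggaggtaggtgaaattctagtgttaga
Mrpl36: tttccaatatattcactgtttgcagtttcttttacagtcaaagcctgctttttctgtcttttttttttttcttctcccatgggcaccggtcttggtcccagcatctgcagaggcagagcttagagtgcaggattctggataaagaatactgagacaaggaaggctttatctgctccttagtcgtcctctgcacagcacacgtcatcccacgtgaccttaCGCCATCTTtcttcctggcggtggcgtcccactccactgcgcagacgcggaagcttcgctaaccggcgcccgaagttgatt
Mrpl12: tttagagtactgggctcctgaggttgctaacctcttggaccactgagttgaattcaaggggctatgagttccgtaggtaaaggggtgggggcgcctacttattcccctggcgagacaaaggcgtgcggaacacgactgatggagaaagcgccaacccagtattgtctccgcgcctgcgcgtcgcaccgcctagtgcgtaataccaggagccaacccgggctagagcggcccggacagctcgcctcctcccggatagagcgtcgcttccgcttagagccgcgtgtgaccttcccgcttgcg

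Knockdown against control at day 4 asked whether Linc1405 affects gene expression at the mesoderm stage. The mitochondrial ribosomal protein genes differed little between the lines. Of the 66 members past the filter 0 differed 2-fold, against 2.27% of all 10699 genes past the filter, and 0 differed even 1.5-fold, against 6.35%. Among 1404 other genes within the members' middle range of intensity, 1 was at least 2-fold higher and 5 lower. At 1.5-fold, 14 of these 1404 were higher and 14 lower, so such differences were rare among genes of like brightness too. The members' median difference was -0.03, with the middle 50% of members between -0.10 and 0.07, beside a median of 0 over all named genes. As deposited the members' median turned positive, at 0.18, with that of all genes at 0.20. The large subunit had a median of -0.05 and the small subunit of 0.00, with 13 of 45 and 12 of 24 members above 0. The SD over members was 0.15, less than the probe error of 0.21. Over the 1404 genes of like intensity the SD was 0.20, and over all named genes 0.34.

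Among members past the filter, the one furthest below control at day 4 was Mrps6, a small-subunit protein of a bacterial family, at 15.15 in knockdown and 15.56 in control cells, a difference of -0.41. In the large subunit, Mrpl9 was lowest with 13.48 in knockdown and 13.74 in control cells (-0.27). Mrpl55, a protein of the central protuberance, followed with 12.24 in knockdown and 12.43 in control cells (-0.19). Mrpl42 and Mrps28 completed the 5 lowest members at -0.17 each, a size within the probe error.

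At the other end stood Mrps35, a protein found only in mitochondrial small subunits, with 14.77 in knockdown and 14.41 in control cells (0.36). Mrps16, which belongs to a bacterial family, had 15.16 in knockdown and 14.86 in control cells (0.29). Mrpl19 (0.28), the exit tunnel protein Mrpl24 (0.26) and Mrpl1 (0.25), which forms one of the stalks of the large subunit, were the other members among the 5 highest. Only 11 of the 69 members, 8 higher and 3 lower, lay beyond 1 SD of probe error and 0 beyond 2. Probes of 1 gene did not always tell the same: Mrpl51 differed by 0.17 on its brightest probe and by 0.67 on its second.

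**Figure D1:**
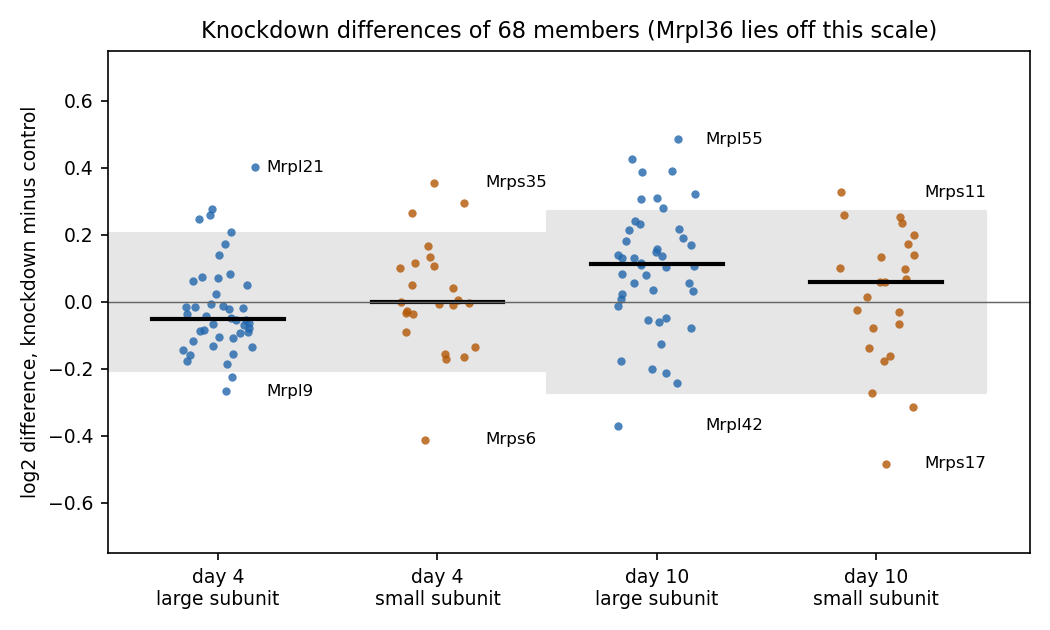
Log2 difference of knockdown minus control for each member (points; blue, large subunit; orange, small subunit) at day 4 and day 10, with the median of each set as a black bar and ±1 SD of single-probe error as a grey band. Most points lie inside the band on both days, the large-subunit median is -0.05 at day 4 and 0.11 at day 10, and Mrpl36, at -7.74 or lower at day 10, is left off.

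At day 10, the cardiomyocyte stage, the same comparison gave 0 members at least 2-fold higher and 1 lower of 65 past the filter. All genes past the filter gave 2.5% higher and 3.61% lower. The 1 member was Mrpl36, described below, and without it 0 of 64 were called in either direction. As deposited, without normalization between arrays, 1 of 64 members was called higher and 1 lower, against 10.66% and 1.56% of all genes. Most members were slightly brighter in knockdown cells: 47 of 69 lay above 0, with a median of 0.10, beside 45.9% of all named genes and a median of 0. Among 1404 other genes within the members' middle range of intensity, 52.7% lay above 0, with a median of 0.02, and 2 were at least 2-fold higher and 11 lower. The SD over members without Mrpl36 was 0.19, and over these 1404 genes 0.31. The size of the shift depended on the scaling: the median over members stood 0.05 above that of all genes with scaling to the 75th percentile, 0.07 above with loess centring and 0.20 above as deposited.

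The members furthest above control at day 10 were of both subunits. Mrpl55 was at 12.14 in knockdown and 11.65 in control cells, a difference of 0.49 on the opposite side from day 4. Mrpl58, a hydrolase of stalled peptidyl-tRNAs that sits in the ribosome, was at 15.13 in knockdown and 14.70 in control cells (0.43). Mrpl15 (0.39), Mrpl37 (0.39) and Mrps11 (0.33) followed, Mrpl37 being a mitochondria-specific protein.

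Lowest among members above the floor on both arrays was Mrps17, a small-subunit protein of a bacterial family, at 10.07 in knockdown and 10.55 in control cells (-0.48). Mrpl42 followed with 15.08 in knockdown and 15.45 in control cells (-0.37), and Mrps31 with 14.10 and 14.42 (-0.31), both mitochondria-specific. Mrps18b (-0.27) and Mrpl9 (-0.24) completed the 5 lowest, and Mrpl9 and Mrpl42 were also among the 5 lowest at day 4. Mrps10 was level on its brightest probe (-0.03) but stood at -0.45 and -1.46 on its other probes, so its difference at day 10 is uncertain. Leaving out Mrpl36, 12 members lay beyond 1 SD of probe error and 0 beyond 2.

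The differences of the 2 days come from separate arrays and were set beside each other as a description. Over the 68 members without Mrpl36, Pearson r was 0.06 and Spearman rho 0.11, and over all named genes 0.08 and 0.05. A member's place in the knockdown difference at day 4 therefore said little about its place at day 10. The day 10 difference minus the day 4 difference had a median of 0.13 over the members, 44 of 69 lying above 0. Over all named genes the median was 0, with 44.6% above 0. Over the 1404 other genes within the members' middle range of intensity it was 0.00, with 50.4% above 0. Whether the knockdown difference changed between the days was not tested, since each rests on 2 arrays.

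Mrpl36 encodes a small protein of the large subunit of a bacterial family, and its single probe behaved unlike that of any other member. Its intensity as deposited was 6 in ESCs, 37691 in knockdown and 35247 in control cells at day 4, and -35 in knockdown and 14517 in control cells at day 10. After normalization it lay at the floor in ESCs and in knockdown cells at day 10, and at 14.78, 14.89 and 14.38 on the 3 other arrays. At day 10 it was therefore at least 214-fold lower in knockdown than in control cells, a log2 difference of -7.74 that is a bound. In control cells at day 4 it was at least 303-fold higher than in ESCs.

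Of 26423 probes on the array, Mrpl36 was the only one at the floor in both ESCs and knockdown cells at day 10 and at 12 or more on the other 3 arrays. Only 3 probes were at the floor on one and at 12 or more on the other of the 2 day 10 arrays. The neighbouring gene Ndufs6, which encodes a subunit of respiratory complex I, did not follow this pattern. Its log2 intensities were 11.70 in ESCs, 10.87 in knockdown and 10.80 in control cells at day 4, and 11.05 in knockdown and 11.22 in control cells at day 10. On the array of knockdown cells at day 10, 1050 of the 26423 deposited values lay at or below 0, against 38 or fewer on each other array. With 1 probe and 1 array per group, RNA level and a failed spot cannot be told apart for Mrpl36.

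**Figure D2:**
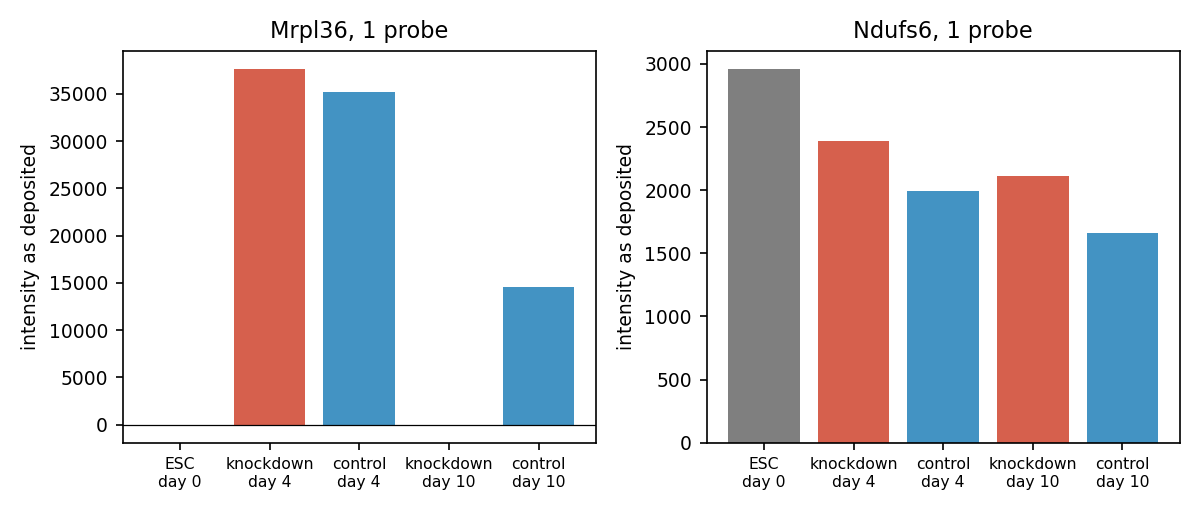
Intensity as deposited, on a linear scale, of the single probes of Mrpl36 and of its neighbour Ndufs6 on the 5 arrays (grey, ESC; red, knockdown; blue, control). Mrpl36 is at 6 in ESCs and -35 in knockdown cells at day 10, against 14517 to 37691 on the other arrays, whereas Ndufs6 stays between 1661 and 2956.

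Differences of individual members were larger over the course of differentiation than between knockdown and control. They were smaller than those of genes at large, and most lay within the probe error. The SD over members without Mrpl36 was 0.40 from ESCs to control cells at day 4, beside 1.08 over all named genes and a probe error of 0.61. In this step, the entry into mesoderm, the median over members was 0.16, with the middle 50% between -0.16 and 0.45, beside a median of 0 over all named genes. The 1404 other genes within the members' middle range of intensity had a median of 0.10. Of these 57.6% lay above 0, against 56.5% of the members. With loess centring the members' median was 0.07. Past the filter, 2 of 65 members were at least 2-fold higher and 0 lower, against 12.8% and 13.9% of all 11293 genes, and 1 of these 2 was Mrpl36. The other was Mrpl55, at 12.43 in control cells at day 4 against 11.39 in ESCs, a difference of 1.04. It no longer reached 2-fold with loess centring, where 1 member was called, against 11.4% of all genes, and as deposited 7 of 67 were called, against 19.6%. At 1.5-fold, 8 members were higher and 3 lower, against 23.7% and 21.5% of all genes. The large subunit had a median of 0.17 and the small subunit of -0.02.

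Members of the stalks of the large subunit, which handle elongation factors and tRNAs, were among those with the higher values at day 4. Mrpl1 was at 10.98 in control cells at day 4 against 10.09 in ESCs (0.89), and Mrpl12 at 15.33 against 14.57 (0.76), while Mrpl10, the protein that anchors Mrpl12, was at 14.86 against 14.98 (-0.12). In the small subunit Mrps6 was at 15.56 in control cells at day 4 against 14.67 in ESCs (0.89) and Mrps7, which binds the head of the subunit's rRNA, at 15.64 against 14.99 (0.66).

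Lower at day 4 than in ESCs were Mrpl24 (-0.79), with 14.92 in control cells at day 4 against 15.71 in ESCs, and Mrps31 (-0.76), with 14.00 against 14.75. Mrps24 (-0.64), Mrps10 (-0.43) and Mrpl39 (-0.38) followed. Only 13 of the 69 members lay beyond the probe error of 0.61, 10 higher and 3 lower.

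Between day 4 and day 10 most members were dimmer at day 10 in both lines. The median was -0.28 in knockdown cells (52 of 69 members below 0) and -0.36 in control cells (also 52 of 69), beside 0 over all named genes in each line. The 1404 other genes within the members' middle range of intensity had medians of -0.10 and -0.12, with 763 and 766 of them below 0. At 1.5-fold, 5 members were higher and 14 lower (13 without Mrpl36) in knockdown cells, against 27.9% and 32.3% of all genes, and 4 higher and 20 lower in control cells, against 27.8% and 33.1%. Members past the filter that were at least 2-fold lower numbered 5 of 66 in knockdown cells, against 18.1% of all 11416 genes (4 of 65 without Mrpl36), and 4 of 65 in control cells, against 19.4% of 11434. At least 2-fold higher were 0 members in each line, against 18.7% and 19.1% of all genes. The SD over members without Mrpl36 was 0.52 in knockdown and 0.56 in control cells, below the probe error of 0.71 and 0.74, and over all named genes 1.17 and 1.20. Beyond 1 SD of probe error lay 12 of 69 members in knockdown cells (1 higher, 11 lower). In control cells 16 lay beyond it (1 higher, 15 lower). Beyond 2 SD lay 3 members in knockdown cells, Mrpl36 among them, and 2 in control cells. Without normalization between arrays the median of all genes was itself -0.58 in knockdown and -0.72 in control cells. The members' medians then stood 0.21 and 0.44 below those medians, and 21 of 67 members in knockdown cells were at least 2-fold lower, against 36.3% of all genes, and 46 of 67 in control cells, against 48.1%.

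Among members past the filter, the largest decreases were in the large subunit. Mrpl15, a protein of a bacterial family that binds large-subunit rRNA, was at 10.83 in ESCs, 11.35 in knockdown and 11.36 in control cells at day 4, and 9.59 in knockdown and 9.20 in control cells at day 10. Its day 10 minus day 4 difference was -1.76 in knockdown and -2.16 in control cells. Mrpl12, the stalk protein that contacts translation factors, was at 14.57 in ESCs, 15.19 in knockdown and 15.33 in control cells at day 4, and 13.56 in knockdown and 13.40 in control cells at day 10, differences of -1.63 and -1.93. Both lines were thus low at day 10 relative to day 4 and to ESCs for these members.

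Mrpl20, an rRNA-binding protein of early assembly in bacteria, was at 15.00 in ESCs, 15.63 in knockdown and 15.65 in control cells at day 4, and 14.60 in knockdown and 14.38 in control cells at day 10, differences of -1.03 and -1.27. Mrpl11, at the base of the stalk, had differences of -1.02 in knockdown and -0.92 in control cells. These values stand between those of Mrpl12 and of Mrpl10, its partners in the stalk. Mrpl4, a bacterial-family protein near the exit tunnel, had -0.92 and -1.11, and Mrps18b, the lowest small-subunit member, -0.95 and -0.84. Mrps18b was at 13.54 in ESCs, 13.14 in knockdown and 13.29 in control cells at day 4, and 12.18 in knockdown and 12.46 in control cells at day 10, lowest on both day 10 arrays. These 6 members were among the 12 at least 1.5-fold lower in both lines, and Mrpl12, Mrpl15 and Mrpl20 were the 3 of 65 past the filter at least 2-fold lower in both, against 14.4% of 11114 named genes. The dim member Mrpl45, below the filter, differed by -1.19 in knockdown and -1.21 in control cells.

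A few members went the other way after normalization. Mrpl14, a large-subunit protein at the interface with the small subunit, was at 14.32 in ESCs, 14.60 in knockdown and 14.39 in control cells at day 4, and 15.47 in knockdown and 15.22 in control cells at day 10. Its day 10 minus day 4 difference was 0.87 in knockdown and 0.84 in control cells. Mrpl24 (0.61 and 0.72), Mrpl33 (0.65 and 0.66) and Mrpl9 (0.64 and 0.62) were the other members of the 65 that were at least 1.5-fold higher in both lines. Unlike Mrpl14, they lay within 1 SD of probe error (0.71 and 0.74). Mrpl33, a small bacterial-family protein, was at 16.04 in ESCs, 15.83 in knockdown and 15.69 in control cells at day 4, and 16.49 in knockdown and 16.36 in control cells at day 10. Mrpl9 was at 13.59 in ESCs, 13.48 in knockdown and 13.74 in control cells at day 4, and 14.12 in knockdown and 14.36 in control cells at day 10. After normalization both were brightest on the day 10 arrays, although Mrpl9 was dimmer in knockdown than in control cells on both days. As deposited, where all genes had medians of -0.58 and -0.72, the control differences of these members were 0.06 for Mrpl14, -0.03 for Mrpl24, -0.02 for Mrpl33 and -0.17 for Mrpl9, so that their increase is one relative to other genes and its direction flips in control cells for Mrpl24, Mrpl33 and Mrpl9. Mrpl44, a mitochondria-specific protein whose human gene is linked to cardiomyopathy, differed by 0.60 in knockdown and 0.45 in control cells, and as deposited by 0.09 and -0.29.

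**Figure D3:**
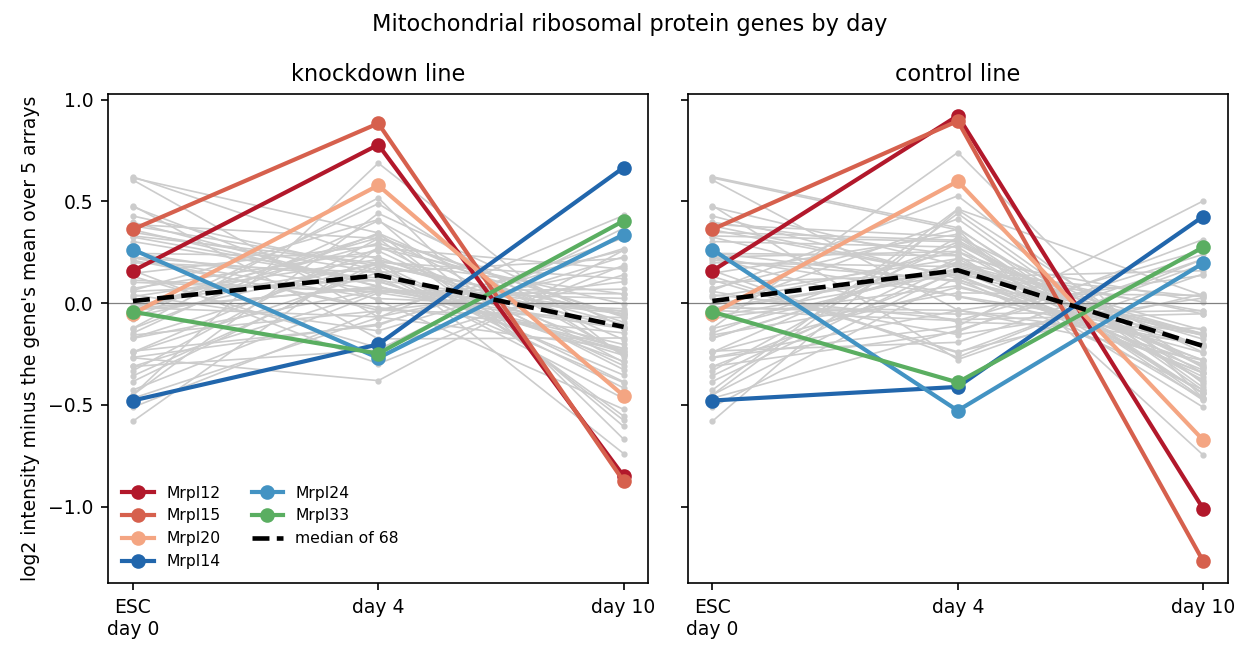
Log2 intensity of 68 members (Mrpl36 left out), each minus its own mean over the 5 arrays, at day 0, 4 and 10 in the knockdown line (left) and the control line (right); both panels share the single ESC array. Coloured lines follow members with the largest decreases (Mrpl12, Mrpl15, Mrpl20) and increases (Mrpl14, Mrpl24, Mrpl33) past the filter, the first 3 below and the others above their own mean at day 10 in both lines, and the dashed line is the median.

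Member by member, the course from day 4 to day 10 was close in the 2 lines, whose 4 arrays are separate. Over the 68 members without Mrpl36, Pearson r between the lines was 0.91 and Spearman rho 0.85, beside 0.89 and 0.86 over all named genes, and 62 of 68 had the same sign. Over the 11114 named genes past the filter in both lines, r was 0.92 and rho 0.91. By rho the members thus followed each other between lines about as closely as all named genes, and less closely than genes past the filter. The control difference lay within 0.25 of the knockdown difference for 49 of 68 members, and the SD of the gap was 0.24. That is less than the probe error of the 2 courses (0.71 and 0.74), so differences within that error could still recur in both lines. At 1.5-fold in both lines, 12 of 65 members were lower and 4 higher, against 27.1% and 23.0% of 11114 named genes. Mrps17 had the widest gap among the 6 members of opposite sign, at -0.30 in knockdown and 0.35 in control cells.

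**Figure D4:**
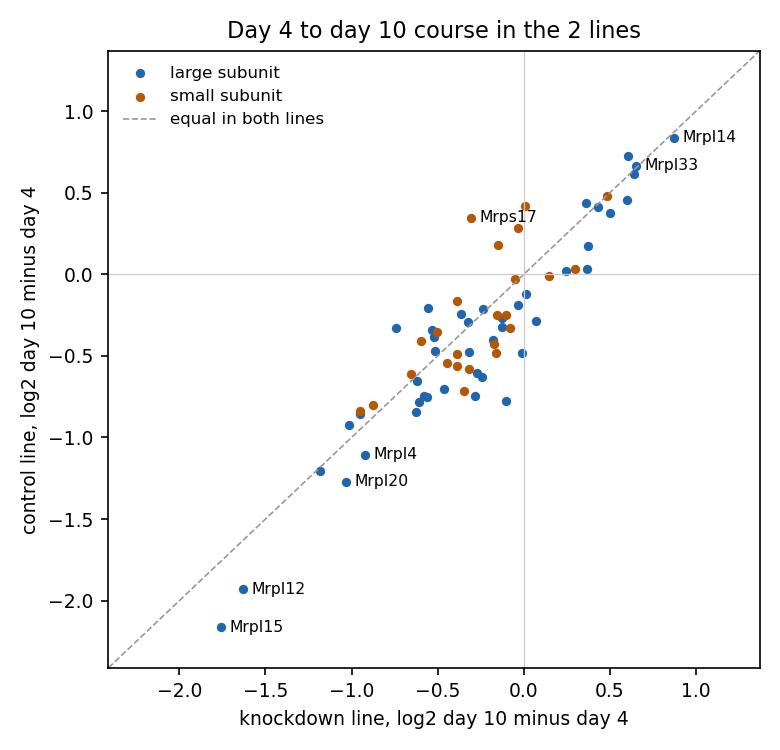
Log2 difference of day 10 minus day 4 in the knockdown line (x) and the control line (y) for 68 members (blue, large subunit; orange, small subunit; Mrpl36 left out), with the dashed line marking equal values. The points run along the line (Pearson r 0.91), from Mrpl15 at -1.76 and -2.16 to Mrpl14 at 0.87 and 0.84.

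Over the whole course, control cells at day 10 against ESCs, the members had a median difference of -0.17, with 46 of 69 below 0. The 1404 other genes of like intensity had a median of -0.02, with 715 below 0. At 1.5-fold, 6 members were higher and 17 lower, against 31.6% and 33.9% of all genes. At least 2-fold lower were 4 of 65 past the filter, against 22.4% of all 11657 genes: Mrpl15 (-1.63), Mrpl4 (-1.36), Mrpl12 (-1.17) and Mrps18b (-1.09). Mrpl36, at the floor in ESCs, was the 1 member at least 2-fold higher, against 22.9% of all genes, and 0 were called higher without it. Mrpl14 (0.90), Mrpl9 (0.77), Mrpl27 (0.71), Mrps33 (0.67) and Mrpl44 (0.62) were the next highest. Mrpl4 was at 14.99 in ESCs, 14.72 in knockdown and 14.74 in control cells at day 4, and 13.80 in knockdown and 13.63 in control cells at day 10. Unlike Mrpl12 and Mrpl15, it was thus not above its ESC level at day 4.

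The parts of the ribosome differed in their medians. Members of bacterial families (41 genes) had a median day 10 minus day 4 difference of -0.30 in knockdown and -0.48 in control cells, and mitochondria-specific members (28 genes) of -0.20 and -0.29. All the members called 2-fold lower were of bacterial families, where they made up 5 of 40 in knockdown and 4 of 39 in control cells, against 0 of 26 among mitochondria-specific members in each line and 18.1% and 19.4% of all genes. The 5 include Mrpl36. The mitochondria-specific member Mrpl45 differed by -1.19 in knockdown and -1.21 in control cells, and was not called only because it lay below the intensity filter. The contrast was not tested. The 4 stalk proteins had medians of -0.98 and -0.89, Mrpl10 standing apart from Mrpl12, Mrpl11 and Mrpl1 at 0.36 and 0.03. The 6 listed exit tunnel proteins, where the nascent chain leaves, had medians of 0.04 and -0.02. These change sign with the scaling (-0.09 and -0.15 when scaled to the 75th percentile, 0.11 and 0.13 with loess centring). They also depend on the choice of list, since Mrpl4, near the exit tunnel but not in this list, was at -0.92 and -1.11. The 8 central protuberance proteins had medians of -0.11 and -0.38.

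The 4 members linked to human heart muscle disease, Mrpl3, Mrpl44, Mrps14 and Mrps22, had different courses. Mrpl44 was at 14.98 in ESCs, 15.06 in knockdown and 15.15 in control cells at day 4, and 15.66 in knockdown and 15.60 in control cells at day 10. Mrps22 was at 13.74 in ESCs, 14.32 in knockdown and 14.32 in control cells at day 4, and 14.24 in knockdown and 13.99 in control cells at day 10. Mrpl44 was thus highest at day 10 and Mrps22 at day 4 after normalization, but as deposited the day 10 minus day 4 difference of Mrpl44 was 0.09 in knockdown and -0.29 in control cells, where its direction flips. Mrpl3 and Mrps14 differed between day 10 and day 4 by -0.27 and -0.65 in knockdown and by -0.60 and -0.61 in control cells. Knockdown differences of the 4 genes lay between -0.09 and 0.11 at day 4 and between 0.06 and 0.31 at day 10.

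Subunits of the same ribosome that carry other names were 4 measured genes. Ptcd3 differed between day 10 and day 4 by -1.26 in knockdown and -1.04 in control cells, Gadd45gip1 by -0.42 and -1.12, and Chchd1 by -0.12 and -0.10. Dap3, a GTP-binding protein of the small subunit, had differences of -2.04 and -2.53 from a dim probe, at 6.79 in ESCs, 9.47 in knockdown and 9.20 in control cells at day 4, and 7.43 in knockdown and 6.67 in control cells at day 10. These genes therefore also had negative differences, of widely different size.

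Other parts of the mitochondrial translation system were set beside the ribosomal proteins. Between day 4 and day 10, median differences in knockdown and control cells were -0.26 and -0.22 for 25 genes of ribosome assembly and rRNA modification, -0.60 and -0.28 for 15 translation factors, and -0.52 and -0.64 for 17 genes of aminoacyl-tRNA synthesis. Genes at least 2-fold lower in control cells were 2 of 22 past the filter in assembly, led by the pseudouridine synthase gene Trub2 (-1.50), 1 of 13 translation factors, Gfm2 (-1.41), a ribosome recycling factor, and 5 of 17 synthesis genes, led by Hars2 (-1.70), against 19.4% of all genes. Against these, Mettl15 (1.84), which methylates small-subunit rRNA, and Fars2 (1.20) were at least 2-fold higher. Genes of mtDNA transcription and maintenance had medians of -0.61 and -0.64, among them Tfam, which packages mtDNA, at -1.09 in knockdown and -1.25 in control cells.

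Nuclear subunits of the respiratory chain lay on the other side of 0 after normalization. Their 72 measured genes had medians of 0.17 in knockdown and 0.23 in control cells, and 2-fold increases were found in 5 of 64 and 10 of 66 of those past the filter, against 18.7% and 19.1% of all genes. Cox8b, a heart and muscle form of a complex IV subunit, was at the floor in ESCs and at day 4 and stood highest, with differences of at least 3.21 and 4.41. As deposited, where all genes had medians of -0.58 and -0.72, the list's medians were -0.28 and -0.46, so that its direction flips while it stays above all genes. Ppargc1a, a coactivator of mitochondrial genes, was at the floor in ESCs and at day 4 and at 8.79 in knockdown and 10.81 in control cells at day 10. Nrf1 differed between day 10 and day 4 by -0.79 and -1.12, Gabpa by -0.07 and -0.25, and Lrpprc, which stabilises mitochondrial messages, by -1.02 and -0.96.

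Cytosolic ribosomal protein genes had medians of -0.54 in knockdown and -0.79 in control cells (39 genes), with 12 of 34 and 13 of 34 past the filter at least 2-fold lower, against 18.1% and 19.4% of all genes. Cell cycle genes had medians of -1.45 and -1.53 (16 genes), with 10 of 15 lower in each line. They did not move as 1. Mcm5 was lowest (-2.45 in knockdown and -3.03 in control cells), while Ccnb2 was higher (0.91 and 0.83) and Aurkb level (0.01 and 0.00). Birc5 (0.03 and -0.36) and Top2a (-0.36 and -0.21) differed little. The part of dividing cells in the members' lower values at day 10 was not tested. In the knockdown comparison at day 10 the cell cycle list stood at 0.20, assembly genes at 0.12, the members at 0.10, respiratory chain subunits at -0.03 and cytosolic ribosomal proteins at 0.00. As deposited, where all genes had a median of 0.37, they stood at 0.69, 0.63, 0.56, 0.43 and 0.48. Ppargc1a differed by -2.02.

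**Figure D5:**
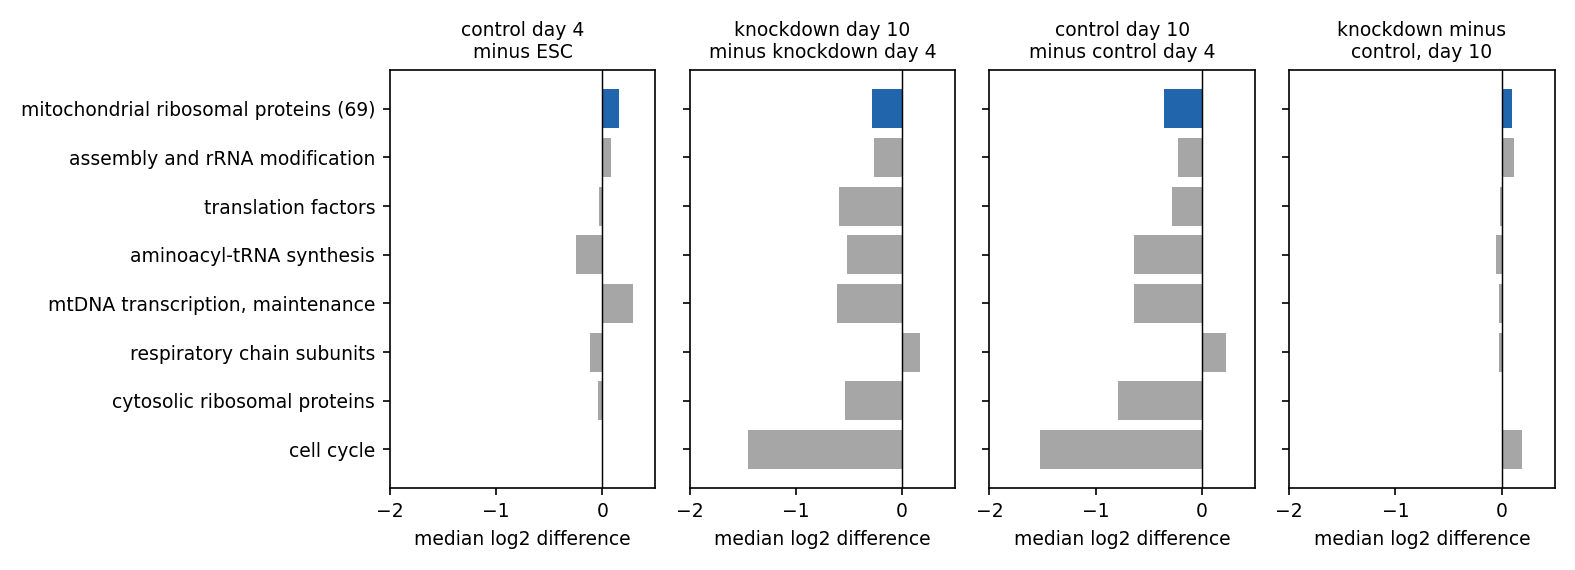
Median log2 difference over the measured genes of 8 lists (bars start at 0; the 69 mitochondrial ribosomal protein genes in blue) in 4 comparisons. From day 4 to day 10 the members' bars are at -0.28 in knockdown and -0.36 in control cells, respiratory chain subunits lie above 0 (below it as deposited) and cell cycle genes at -1.45 and -1.53.

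Members whose promoter windows held the motif letters did not share 1 course. From day 4 to day 10 in control cells, the 23 genes with ETS letters had a median difference of -0.33 and the 37 without of -0.42, and the 8 with YY1 letters had -0.38 and the 52 without -0.37. The 7 with NRF1 letters had a median of 0.03, against -0.38 for 53 without, with Mrpl33 and Mrpl9 at 0.66 and 0.62 and Mrps18b at -0.84 among them.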

How the data were processed

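RNA of 5 mouse cell cultures was hybridised to single-colour arrays as Cy5-labelled amplified RNA (5 µg made, per the labels' protocols). The deposited intensity values were linear. Agilent Feature Extraction, version 10.7.1.1, appears in the submitters' processing notes. Some deposited values lay below 0, which takes a background subtraction. Values at or below 0 were uneven over the arrays: 1050 in knockdown cells at day 10, 38 in control cells at day 4, 3 each in ESCs and in control cells at day 10, and 0 in knockdown cells at day 4. Array medians ran from 344 to 745, so no scaling to a common median is present. Further steps, detection calls and saturation marks are not given in the sources used here.

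Of 26423 probes, 20377 carried 1 gene symbol, and symbols were updated through the GRCm38.p6 gene table, by current symbol for 18213 probes and through a synonym for 2126 (among them those of Mrpl57 and Mrpl58), while 38 kept their older symbol. Intensities were quantile normalized over the 5 arrays, raised to 100 where lower, and then converted to log2. This floor took 19.0 to 19.1% of probes on each array. The brightest probe stood for a gene, 9 members having more than 1. Calculations used Python 3.11.15, numpy 2.4.6, pandas 2.3.3 and statsmodels 0.14.6, and were tested on simulated data. The number of arrays limits the precision.

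Members and lists were chosen with earlier results of these data known. Named members were the 5 highest and 5 lowest in each comparison with both arrays above the floor, those at least 2-fold apart or at the floor, stalk and heart disease members, and the ends of each list. Alternatives were other normalizations, floors, filters, thresholds and probe rules. Pseudogenes of Mrpl27 and Mrpl48 are in the gene table, and their RNA cannot be told apart from these genes here.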

Additional observations from a re-analysis of the deposited data

How the results depend on the processing

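The median difference of the members moved by more than 0.1 mainly where arrays were left unscaled. As deposited it was 0.18 for knockdown against control at day 4 and 0.56 at day 10, 0.47 for control day 4 against ESCs, -0.79 and -1.16 for day 10 against day 4 in knockdown and control cells, and -0.72 for control day 10 against ESCs, where the medians of all genes were 0.20, 0.37, 0.17, -0.58, -0.72 and -0.51. With scaling to a common 75th percentile the last 3 medians of members were -0.41, -0.46 and -0.39. As deposited, members called lower numbered 21 and 46 for day 10 against day 4 in knockdown and control cells and 17 for control day 10 against ESCs (5, 4 and 4 after normalization), where 36.3%, 48.1% and 37.6% of all genes were lower. Members called higher were then 7 for control day 4 against ESCs (2 after normalization; 19.6% of all genes) and 1 for knockdown against control at day 10 (0 after normalization; 10.66% of all genes). At 1.5-fold, members called higher and lower were 8 and 3 for control day 4 against ESCs, 5 and 14 for day 10 against day 4 in knockdown cells, 4 and 20 in control cells, and 6 and 17 for control day 10 against ESCs. Loess centring gave 1 higher for control day 4 against ESCs and 3 lower for day 10 against day 4 in knockdown cells. Without Mrpl36, an alternative chosen after seeing the data, 0 members were lower in knockdown at day 10, 4 lower in knockdown day 10 than day 4, 1 was higher in control day 4 than in ESCs and 0 in control day 10 than in ESCs. The bound on Mrpl36 at day 10 ran from -8.74 with a floor of 50 to -6.74 with a floor of 200. Pearson r between the lines' courses, a relation added after seeing the data, ran from 0.89 to 0.91 over all settings, and r between the knockdown differences of the 2 days from 0.03 to 0.10. No member called 2-fold changed sign under any setting. No paired analysis was possible because each group holds 1 array.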

Other observations

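Mrps11 and Mrpl46, whose promoter windows overlap head to head, had differences from day 4 to day 10 of -0.16 and -0.61 in knockdown and of -0.49 and -0.78 in control cells. Their knockdown differences were 0.00 and -0.05 at day 4 and 0.33 and 0.12 at day 10.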
